A study of Mus musculus with 8 samples.

Results

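The retinoblastoma and E2F family was followed here as 10 genes, taken by name from the gene table: the pocket protein genes Rb1, Rbl1 and Rbl2, the E2F genes E2f1, E2f2, E2f3, E2f4, E2f6 and E2f8, and Tfdp1, which encodes the DNA-binding partner of most E2F proteins. They are 10 of the 50686 Ensembl genes in the table, and all 10 were among the 16066 genes that passed a filter on low counts. RNA was sequenced from hematopoietic stem cells (HSCs) of the bone marrow of C57BL/6J mice, of unstated age. Large HSCs came from a scatter gate around the biggest 10% of the cells, Medium HSCs from a gate within 10% of the mean size, Small HSCs from a gate around the smallest 10%, and All HSCs were sorted without a size gate. All groups share the same prior steps: depletion of lineage-positive cells, staining of CD117, Sca-1, CD48 and CD150, and collection of 10000 cells in G0/1 phase per library. HSCs from treated mice of the same study are not analysed here. Each of the 4 groups had 2 libraries, numbered 1 and 2. The labels do not say whether the libraries of a group came from separate animals, so p-values measure the spread between these libraries, which may be technical. Whether a number stands for a shared animal or day is not stated either.

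Pocket proteins bind E2F transcription factors and hold the genes of DNA replication and mitosis silent. Cyclin D with CDK4 or CDK6, and later cyclin E with CDK2, phosphorylate the pocket proteins, which then release E2F. Rb1 encodes RB, which restrains mainly the activators E2F1, E2F2 and E2F3. Rbl2 encodes p130, typical of resting cells, where it joins E2F4 and the MuvB proteins in the repressive DREAM complex. Rbl1 encodes p107, whose gene is itself an E2F target and which takes the place of p130 in cycling cells. E2F6 and E2F8 repress without pocket proteins, E2F6 in a Polycomb complex and E2F8 as an atypical family member that damps E2F target genes late in the cycle. In cultured human cells RB protein becomes diluted as cells grow in G1 phase, which gives the relation of this family to cell size its interest.

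Because Rbl1 and Rbl2 lay on opposite sides of the size comparison, the 250 bases before their start sites are shown, from RefSeq on GRCm38.p6. Capitals mark a match to the E2F motif, searched on both strands in the forms TTTCCCGC, TTTCGCGC, TTTGCCGC and TTTGGCGC. The Rbl1 stretch is chr2:157204535-157204784 on the minus strand and the Rbl2 stretch chr8:91069807-91070056 on the plus strand.
Rbl1: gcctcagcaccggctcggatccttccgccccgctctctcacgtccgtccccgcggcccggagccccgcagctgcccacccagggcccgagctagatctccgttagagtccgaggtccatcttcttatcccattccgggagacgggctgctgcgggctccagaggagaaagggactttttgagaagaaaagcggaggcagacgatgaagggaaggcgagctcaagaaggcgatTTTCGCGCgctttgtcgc
Rbl2: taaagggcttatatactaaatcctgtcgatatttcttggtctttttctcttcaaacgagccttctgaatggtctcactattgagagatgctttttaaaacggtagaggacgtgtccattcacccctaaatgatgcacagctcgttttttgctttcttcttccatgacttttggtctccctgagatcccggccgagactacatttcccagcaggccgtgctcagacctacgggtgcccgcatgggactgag

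A match occurred at bases -18 to -11 of the Rbl1 promoter, and these letters are not in the Rbl2 window. RefSeq start windows run from 250 bases before to 50 after a start. They were at hand for 8 of the 10 members, all but Rb1 and E2f4. The E2f1 window (chr2:154569377-154569676, minus strand) lies inside the gene, past its annotated start at base 154569892. The bases before that start were thus not searched. The windows of Rbl1, E2f2, E2f3 and Tfdp1 held the motif. It was found in 744 of all 32851 such windows (2.26%), or in 704 of 27025 genes (2.6%), and in 16 of the 33 genes with a window among the 40 G1/S targets of E2F described below. The other 3 matches of members are shown with their surroundings, the Tfdp1 and E2f3 matches reading on the reverse strand. They lie at chr13:29986041-29986100 (minus strand) for E2f3, at chr8:13338682-13338741 (plus strand) for Tfdp1, and at chr4:136172302-136172323 (plus strand), after the RefSeq start, for E2f2. A match describes letters and is not a measured binding site.
E2f3: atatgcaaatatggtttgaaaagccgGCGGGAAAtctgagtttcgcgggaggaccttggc
Tfdp1: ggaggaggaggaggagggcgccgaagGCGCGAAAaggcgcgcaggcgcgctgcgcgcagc
E2f2: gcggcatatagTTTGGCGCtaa

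The shallowest library, Small 2, held 13698362 counts and the deepest, All 2, held 16838448. Values are given as CPM (counts per 1000000 of a library, with TMM scaling) and as TPM (also corrected for transcript length) where genes are compared with one another. Both are relative to the other transcripts of a library, so fewer cells of a type and less RNA per cell cannot be told apart, nor can the RNA content of a cell of a given size be read from them. All 12 genes of a list of HSC sort antigens and identity genes were detected in every library, with a summed level of 999 CPM in Large 1 and 3501 CPM in All 2 at the extremes. Slamf1, which encodes CD150, stood at 7.58 to 22.6 CPM, and Procr, an HSC surface marker, at 5.29 to 179 CPM with its 4 lowest values in the libraries numbered 1. RNA of granulocytes and monocytes was present throughout: the 15 marker genes, all detected in every library, summed to 45350 and 22900 CPM in Large 1 and 2, 24570 and 8250 CPM in Medium, 44620 and 12600 CPM in Small and 56980 and 3532 CPM in All. B cell markers summed to 4086 CPM in Large 2, against 216 to 1214 CPM in the other 7 libraries. Within each number, Large had the lowest sum of the HSC list of the 4 groups. It was 999 CPM beside 1566 to 1751 CPM in number 1 and 1971 CPM beside 2630 to 3501 CPM in number 2. Of the 12 genes, 10 were lower and 2 higher in Large than in Small within each number. Cd48 is part of this list and of its sums as an antigen stained in the sort. Being stained does not make it a gene typical of HSCs. Cd48 stood at 159 and 105 CPM in Large 1 and 2, the highest of the 4 groups within each number. The part of these shifts in the results below was not tested, and gates are compared within each number as well as pooled.

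None of the 10 members passed the test in any of the 3 comparisons, and neither did any other gene (edgeR's quasi-likelihood test with Benjamini-Hochberg adjustment over 16066 genes). The called share was 0% in Large against Small, 0% in Large against Medium and 0% in Medium against Small. The smallest adjusted p over all genes was 0.976, 0.989 and 1.0 in these comparisons. At an unadjusted p under 0.05 the fit held 506, 301 and 695 genes. DESeq2 called 12, 2 and 46 genes at an adjusted p under 0.05, none of them a member, and limma-voom called 0 in each. Rbl1 in Large against Medium was the sole member with an unadjusted edgeR p under 0.05. Directions below are therefore descriptions of 2 libraries against 2, too few for an exact permutation test to reach 0.05.

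**Figure D1:**
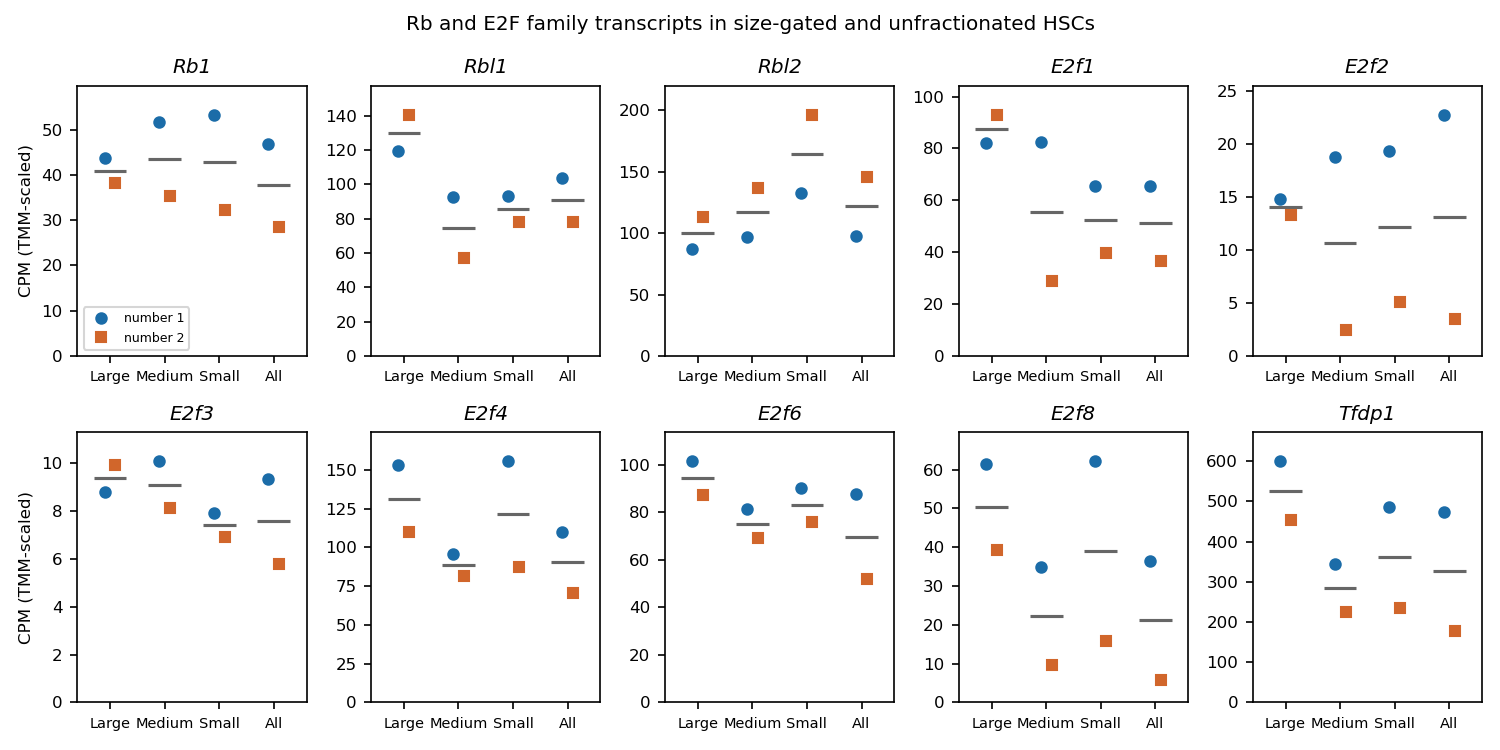
Relative abundance of the 10 members in CPM (vertical axes, each from 0) in Large, Medium, Small and All HSCs; circles are libraries numbered 1, squares libraries numbered 2, and bars the mean of both. Rbl1 and E2f1 reach their highest values in Large 2 and Rbl2 in Small 2, whereas E2f2 and E2f8 are split by number in Medium, Small and All.

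Rb1 (chromosome 14, 73183673 to 73325822, minus strand) had about the same mean level in each size gate. Its values were 43.8 and 38.1 CPM in Large 1 and 2, 51.8 and 35.5 CPM in Medium, 53.3 and 32.4 CPM in Small and 46.9 and 28.6 CPM in All. Every library numbered 1 lay above every library numbered 2, and the gates overlapped. In Large against Small the fitted log2 fold change was -0.06 (SE 0.37; edgeR adjusted p = 0.993), with -0.28 within number 1 and 0.24 within number 2. The corresponding differences were -0.24 and 0.10 in Large against Medium (fitted -0.09, SE 0.37) and -0.04 and 0.13 in Medium against Small (fitted 0.03, SE 0.37). On CPM, the Rb1 difference thus had one sign within number 1 and the other within number 2 in all 3 comparisons. On the TPM scale Rb1 stood at 58.5 and 46.6 TPM in Large 1 and 2, 66.3 and 50.9 TPM in Medium and 55.7 and 54.3 TPM in Small. By TPM it was lower in Large than in Medium within both numbers. In Large against Small and in Medium against Small the TPM signs were the reverse of those on CPM. The lysophosphatidic acid receptor gene Lpar6 lies inside Rb1 on the opposite strand and had 594 to 1092 counts per library beside 453 to 828 for Rb1. Rcbtb2, also on the opposite strand, overlaps Rb1 as well, with 1168 to 1746 counts. Whether strand was used in counting is not stated, so reads of these genes and Rb1 cannot be told apart with certainty.

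Rbl1 (chromosome 2, 157145893 to 157204534, minus strand) had its highest values in Large HSCs, with a mean of 130 ± 15.0 CPM in Large, 74.7 ± 24.9 CPM in Medium and 85.6 ± 10.9 CPM in Small (SD, n = 2 each). Its values were 119 and 141 CPM in Large 1 and 2, against 92.4 and 57.1 CPM in Medium, 93.4 and 77.9 CPM in Small and 104 and 78.0 CPM in All. Both Large libraries lay above all 6 others. The log2 fold change was 0.60 in Large against Small (SE 0.29; edgeR unadjusted p = 0.0794, adjusted p = 0.976), with 0.35 within number 1 and 0.85 within number 2. In Large against Medium it was 0.80 (SE 0.29; edgeR unadjusted p = 0.0302, adjusted p = 0.989), with 0.37 and 1.3. Medium and Small overlapped, with differences of -0.02 and -0.45.

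Rbl2 (chromosome 8, 91070057 to 91123844, plus strand) had its lowest values in Large HSCs. It stood at 87.4 and 113 CPM in Large 1 and 2, 97.1 and 137 CPM in Medium, 133 and 196 CPM in Small and 98.0 and 146 CPM in All. Within each number the Large library was the lowest of the 4 and the Small library the highest. Large against Small gave a log2 fold change of -0.72 (SE 0.32; edgeR unadjusted p = 0.0613, adjusted p = 0.976), with -0.61 within number 1 and -0.80 within number 2, and the groups did not overlap. The mean was 100.2 ± 18.1 CPM in Large and 165 ± 44.7 CPM in Small (SD, n = 2 each). The step between Medium and Small was -0.45 and -0.52 (fitted -0.49, SE 0.32), and that between Large and Medium -0.15 and -0.28 (fitted -0.22, SE 0.32). Rbl2 was the sole member whose level descended from Small to Medium to Large within both numbers, an order held by 5.37% of all tested genes. No member ascended from Small to Medium to Large within both, as 5.75% of all tested genes did. Rbl2 was also the sole member with a higher value in number 2 than in number 1 in every group, the log2 difference of number 1 from number 2 being -0.37 in Large, -0.50 in Medium, -0.56 in Small and -0.58 in All. Aktip, on the opposite strand, overlaps Rbl2 and had 436 to 1213 counts beside 1223 to 2749 for Rbl2.

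On the TPM scale, which allows for transcript length, the 3 pocket protein transcripts shared a sum of 120 to 161 TPM per library. Rbl1 made up 34.4% and 40.7% of it in Large 1 and 2, 27.4% and 21.4% in Medium, 27.8% and 21.8% in Small and 30.9% and 26.2% in All. Rbl2 made up 20.0% and 25.9% in Large, 23.0% and 36.2% in Medium, 30.4% and 44.6% in Small and 24.9% and 43.1% in All. Rb1 held 30.7% to 49.6% and was the largest of the 3 in every library numbered 1 and in Medium 2. Rbl1 was the largest in Large 2, and Rbl2 in Small 2 and All 2. The ratio of Rbl1 to Rbl2 was 1.72 and 1.57 in Large, 1.19 and 0.592 in Medium, 0.916 and 0.488 in Small and 1.24 and 0.609 in All. Thus p107 transcripts outnumbered p130 transcripts in both Large libraries and in neither Small library, and within each number the ratio descended from Large to Medium to Small. The CPM values gave the same order, at 1.36 and 1.24 in Large, 0.951 and 0.416 in Medium and 0.701 and 0.397 in Small.

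**Figure D2:**
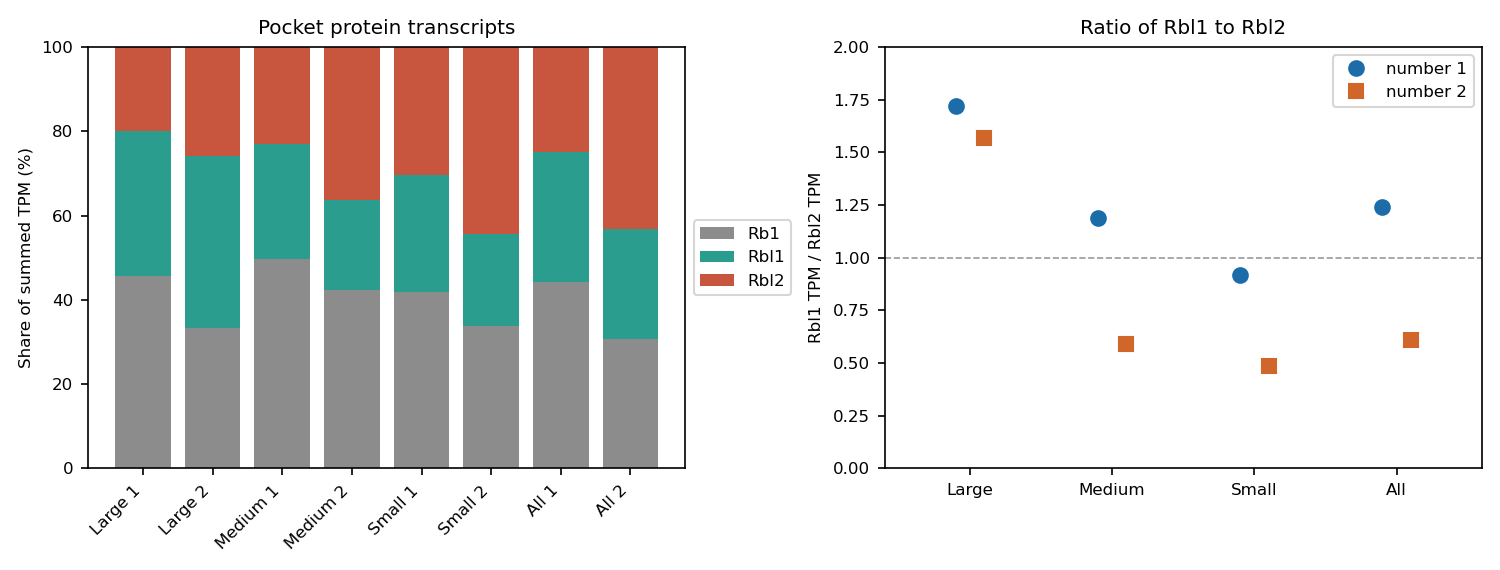
Left, share in percent of the summed TPM of Rb1, Rbl1 and Rbl2 taken by each gene in the 8 libraries. Right, ratio of Rbl1 to Rbl2 TPM per library (circles number 1, squares number 2; the dashed line marks equal levels); both Large libraries, at 1.72 and 1.57, lie above the other 6.

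E2f1 (chromosome 2, 154559407 to 154569892, minus strand), an activator and itself an E2F target, stood at 82.2 and 92.9 CPM in Large 1 and 2, 82.6 and 28.7 CPM in Medium, 65.4 and 39.6 CPM in Small and 65.5 and 36.8 CPM in All. Both Large libraries lay above both Small and both All libraries, while Medium 1 matched Large 1. The log2 fold change in Large against Small was 0.74 (SE 0.54; edgeR adjusted p = 0.976), with 0.33 within number 1 and 1.23 within number 2. In Large against Medium the within-number differences were -0.01 and 1.69. E2f1 thus differed between these gates within number 2 alone, where Medium 2 was the lowest library of all.

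E2f2 (chromosome 4, 136172394 to 136196057, plus strand), a second activator, stood at 14.9 and 13.4 CPM in Large 1 and 2, 18.8 and 2.46 CPM in Medium, 19.4 and 5.07 CPM in Small and 22.8 and 3.49 CPM in All. Within number 1 Large was the lowest of the 4 groups, and within number 2 it was the highest. The log2 difference in Large against Small was -0.38 in number 1 and 1.37 in number 2, and in Large against Medium -0.34 and 2.38. The fitted values, 0.21 (SE 1.17) and 0.41 (SE 1.17), average over these opposite signs. Only 40 counts stood behind the Medium 2 value and 71 behind that of Small 2. On the TPM scale Large 2 (3.94 TPM) lay closer to Small 2 (3.25 TPM) than on CPM.

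E2f3 (chromosome 13, 29906575 to 29986063, minus strand), the third activator, was scarce and even, at 8.79 and 9.93 CPM in Large 1 and 2, 10.1 and 8.13 CPM in Medium, 7.91 and 6.93 CPM in Small and 9.33 and 5.80 CPM in All. On CPM, both Large and both Medium libraries lay above both Small libraries. On the TPM scale the groups overlapped, at 3.32 and 2.95 TPM in Large, 3.04 and 5.02 TPM in Medium and 2.37 and 3.23 TPM in Small. The log2 fold changes were 0.34 in Large against Small and 0.29 in Medium against Small (SE 0.44 each), and the values rest on 97 to 161 counts. Summed on the TPM scale, the 3 activators came to 46.2 and 54.6 TPM in Large 1 and 2, 51.9 and 21.1 TPM in Medium, 41.9 and 29.95 TPM in Small and 41.6 and 25.5 TPM in All. Set against the pocket protein sum this was 0.36 and 0.392 in Large, 0.388 and 0.175 in Medium, 0.314 and 0.186 in Small and 0.327 and 0.213 in All, so the balance of activator to pocket protein transcripts varied little among libraries numbered 1, and Large 2 resembled them.

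E2f4 (chromosome 8, 105297663 to 105305370, plus strand), the usual partner of p107 and p130, had the highest TPM of the E2F members in every library, with 38.6% to 48.9% of the summed E2F TPM. It stood at 153 and 110 CPM in Large 1 and 2, 96.1 and 81.4 CPM in Medium, 156 and 87.1 CPM in Small and 110 and 70.8 CPM in All. Both Large libraries lay above both Medium libraries (log2 fold change 0.57, SE 0.36; 0.67 within number 1 and 0.43 within number 2), while Large and Small overlapped (0.12, SE 0.36; -0.02 and 0.34). Large 1 and Small 1, the 2 highest libraries, also had more granulocyte and monocyte RNA than Medium 1 (45350 and 44620 against 24570 CPM). All 1, with the highest sum (56980 CPM), had 110 CPM of E2f4, as Large 2 did at 22900 CPM of these markers. Single markers differed from the sum. Ngp stood at 17010 CPM in All 1 and 3875 CPM in Large 2, but Mpo at 5276 CPM in All 1 and 7201 CPM in Large 2. The part of granulocyte and monocyte RNA in the E2f4 values was not tested.

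E2f6 (chromosome 12, 16810963 to 16839742, plus strand) varied little, with 101 and 87.0 CPM in Large 1 and 2, 81.1 and 69.3 CPM in Medium, 89.9 and 75.8 CPM in Small and 87.5 and 51.7 CPM in All. Its within-number differences were nearly equal: 0.17 and 0.20 in Large against Small (fitted 0.18, SE 0.29), 0.32 and 0.33 in Large against Medium (fitted 0.32, SE 0.29), and -0.15 and -0.13 in Medium against Small (fitted -0.14, SE 0.29). On CPM the order Large, Small, Medium thus held within both numbers, in steps smaller than the SE or close to it. On the TPM scale Small 2 (50.9 TPM) lay slightly above Large 2 (50.6 TPM). By TPM, E2f6 ranked after E2f4 among the E2F members in all 8 libraries, nearest to E2f1 in Large 2, where E2f6 stood at 50.6 TPM and E2f1 at 47.8 TPM.

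E2f8 (chromosome 7, 48866429 to 48881596, minus strand) had the widest range of the 10 members, with its highest library 10.6 times its lowest. Its values were 61.5 and 39.2 CPM in Large 1 and 2, 35.0 and 9.61 CPM in Medium, 62.1 and 15.9 CPM in Small and 36.4 and 5.85 CPM in All. Within number 1 Large and Small were level (-0.01 on the log2 scale) and Medium lay under both, while within number 2 Large lay 1.29 above Small and 2.01 above Medium. Both Large libraries were above both Medium libraries, with a fitted log2 fold change of 1.17 (SE 1.02; edgeR adjusted p = 0.989). The granulocyte and monocyte sum was lower in Medium than in Large and Small within each number too. It was highest in All 1 (56980 CPM), where E2f8 stood at 36.4 CPM, but single markers differed from the sum. Ngp had its highest value in All 1 (17010 CPM). Mpo stood at 16530 CPM in Large 1, 5516 CPM in Medium 1, 13620 CPM in Small 1 and 5276 CPM in All 1. The part of myeloid RNA in the E2f8 values was not tested.

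Tfdp1 (chromosome 8, 13338751 to 13378448, plus strand) had the highest TPM of the 10 members in every library, 114 to 324 TPM. It stood at 599.7 and 453 CPM in Large 1 and 2, 344 and 224 CPM in Medium, 487 and 235 CPM in Small and 475 and 177 CPM in All. Large was the highest group within each number, and both Large libraries lay above both Medium libraries while Large and Small overlapped. The log2 fold change was 0.89 in Large against Medium (SE 0.54; edgeR adjusted p = 0.989), with 0.80 within number 1 and 1.01 within number 2, and 0.54 in Large against Small (SE 0.53; adjusted p = 0.976), with 0.30 and 0.95. In Medium against Small it was -0.35 (SE 0.53), with -0.50 and -0.07.

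Counted over the family, 5 of 10 members were higher in Large than in Small within both numbers (Rbl1, E2f1, E2f3, E2f6 and Tfdp1), where 32.9% of all tested genes were, and 1 was lower within both (Rbl2), where 30.9% were. The median log2 difference of the members was 0.07 within number 1 and 0.68 within number 2, beside 0.01 in both numbers for all tested genes. Both Large libraries lay above both Small libraries for 3 members (Rbl1, E2f1 and E2f3; 17.7% of all genes) and below them for 1 (Rbl2; 14.7%). Within number 1 alone the members divided 5 to 5, and within number 2 alone 9 were higher and 1 lower, so most of the excess of higher values came from the libraries numbered 2.

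In Large against Medium, 5 of 10 members were higher within both numbers (Rbl1, E2f4, E2f6, E2f8 and Tfdp1; 32.9% of all genes) and 1 was lower (Rbl2; 33.0%). For the same 5, both Large libraries lay above both Medium libraries (18.3% of all genes), and for 0 did both lie below (17.2%). The members' median was 0.16 within number 1 and 0.72 within number 2. In Medium against Small the family leaned the other way, with 7 members lower within both numbers (29.3% of all genes) and 1 higher (E2f3; 30.1%), and medians of -0.10 and -0.29. The 7 were Rbl1, Rbl2, E2f2, E2f4, E2f6, E2f8 and Tfdp1. Groups did not overlap on CPM for 1 member, E2f3, which was higher (16.6% of all genes), and for 0 that were lower (14.3%). By TPM the E2f3 groups overlapped. The 3 comparisons share libraries and so are not independent of one another.

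**Figure D3:**
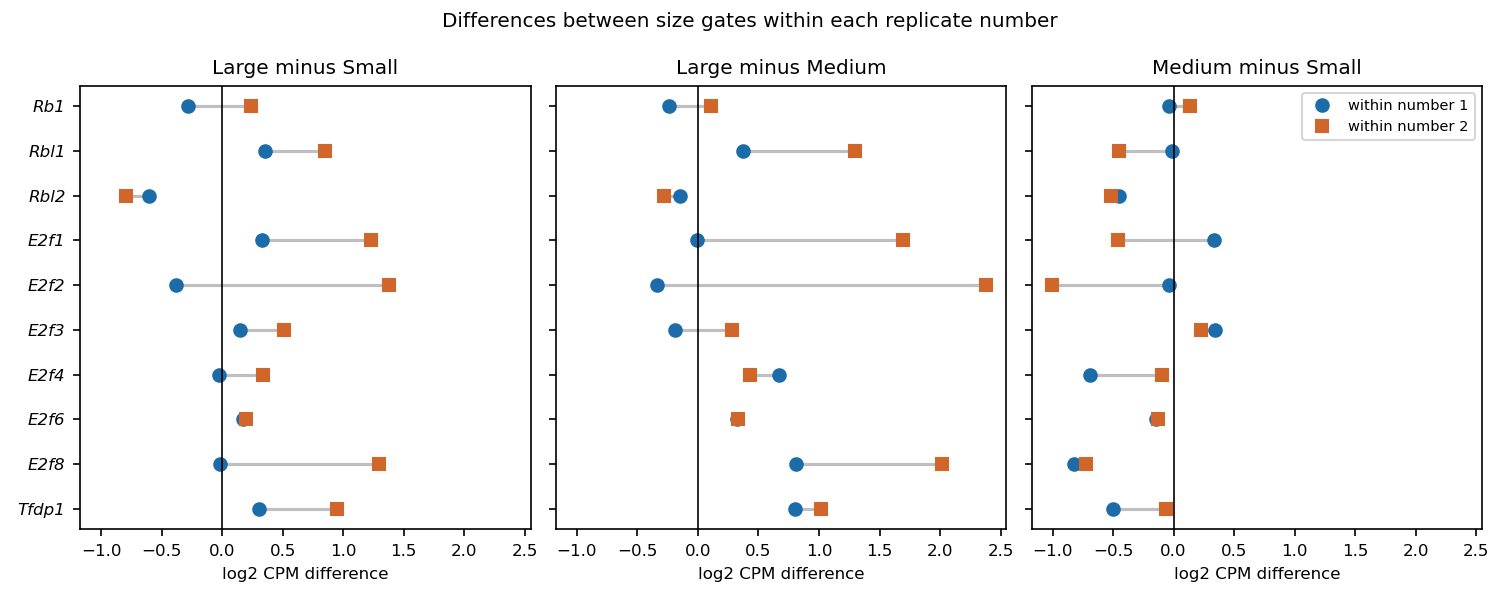
Difference in log2 CPM between size gates for each member, within number 1 (circles) and within number 2 (squares), for Large minus Small, Large minus Medium and Medium minus Small. Rbl2 lies left of 0 in all 6 values and E2f6 keeps nearly the same value in both numbers, whereas E2f2 spans -0.34 to 2.38 in Large minus Medium.

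The 2 libraries of a group lay closest together in Large for every member except E2f4, and the largest gaps outside Large were those of E2f2, E2f8, Tfdp1 and E2f1. Outside Large, the number 1 library exceeded the number 2 library by 2.87 in Medium, 1.91 in Small and 2.66 in All for E2f2 on the log2 scale, by 1.85, 1.96 and 2.61 for E2f8, by 1.52, 0.72 and 0.83 for E2f1 and by 0.62, 1.05 and 1.42 for Tfdp1. In Large the differences were 0.15 for E2f2, 0.65 for E2f8, -0.18 for E2f1 and 0.40 for Tfdp1. The median absolute difference between the numbers over all tested genes was 0.45 in Large, 0.47 in Medium, 0.57 in Small and 0.63 in All.

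The genes whose levels followed each pocket protein most closely were named by Pearson correlation of log2 CPM over the 8 libraries, each value taken relative to the mean of its number, among 10213 genes. For Rbl1 they were Skp2 (r = 0.989), the F-box protein that targets p27 for degradation, Fbxo5 (0.985), an inhibitor of the anaphase-promoting complex, and Pask (0.977), a PAS-domain kinase. Skp2 stood at 65.2 and 52.2 CPM in Large 1 and 2, 36.7 and 12.2 CPM in Medium and 35.7 and 19.6 CPM in Small. For Rbl2 they were Pwwp2b (0.989), Inpp5d (0.981), which encodes the phosphatase SHIP1, and Lrp10 (0.98), a lipoprotein receptor relative. For Rb1 they were Mpeg1 (0.965), a macrophage gene, Alox15 (0.956) and the immunoglobulin gene Ighm (0.955), of which Ighm stood at 3763 CPM in Large 2 and 143 to 1159 CPM elsewhere. Within the family the same measure gave r = 0.935 for Rbl1 and E2f1, 0.918 for E2f8 and Tfdp1 and -0.502 for Rbl1 and Rbl2. These correlations describe 8 libraries that share their gates and numbers.

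Genes around the family were described by 7 lists holding 108 genes, all tested except Cdkn2a and Cdkn2b. No gene of any list passed the edgeR test in any comparison. The G1/S targets of E2F, the replication genes that E2F activates, were all above their Small level in Large. Within both numbers 40 of 40 were higher (32.9% of all tested genes), and for 37 of 40 the 2 groups did not overlap (17.7%). Their median log2 difference was 0.57 within number 1 and 1.24 within number 2. Pcna, the sliding clamp of replicative polymerases, had 617 and 559.8 CPM in Large 1 and 2, against 356 and 255 CPM in Small (log2 fold change 0.95, SE 0.33; edgeR unadjusted p = 0.0241, adjusted p = 0.976). Against Medium, 40 of 40 were higher in Large within both numbers (32.9% of all tested genes) and 34 of 40 did not overlap (18.3%). Pold1, the catalytic subunit of polymerase delta, had 197 and 220 CPM in Large and 142 and 122 CPM in Medium. Between Medium and Small the same list was balanced, with 12 higher (30.1% of all tested genes), 12 lower (29.3%) and 16 mixed. Of the 15 granulocyte and monocyte markers, 5 were higher and 10 lower in Large than in Small within number 1, and 15 were higher within number 2. The 5 were Mpo, Elane, Prtn3, Ctsg and Ms4a3, which were thus higher in Large than in Small within both numbers. The 10 lower within number 1 included Ngp, S100a8 and S100a9. Against Medium, 15 were higher in Large within number 1 and 15 within number 2. Their part in the difference of the G1/S list was not tested.

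The G2/M targets of DREAM are the mitotic genes that p130 complexes silence in resting cells. In Large against Small, 19 of 20 were higher within both numbers (32.9% of all tested genes), with medians of 0.57 and 1.39. For 10 of 20 the groups did not overlap (17.7%). Cenpe, a kinetochore motor, stood at 29.0 and 10.3 CPM in Large 1 and 2 and 5.32 and 1.64 CPM in Small. The MuvB, B-Myb and FoxM1 genes build DREAM and its activating counterpart. In Large against Small, 6 of 7 were higher within both numbers (32.9% of all tested genes) and 5 did not overlap (17.7%). Rbbp4, a histone-binding MuvB subunit, had 804 and 775 CPM in Large and 653 and 489.8 CPM in Small (0.47, SE 0.22; edgeR adjusted p = 0.976). Lin37, a MuvB subunit needed for repression, was level at 33.4 and 36.4 CPM in Large and 36.7 and 35.9 CPM in Small. In Medium, Cenpe stood at 25.5 and 9.11 CPM, close to its Large values. Between Medium and Small the mitotic list had 5 genes higher within both numbers (30.1% of all tested genes), 7 lower (29.3%) and 8 mixed.

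Upstream of the pocket proteins, 16 genes of a list of cyclins, CDKs, CDK inhibitors and some of their regulators were tested. Of these, Skp2, Fbxo5 and Cdc25a encode no cyclin, CDK or CDK inhibitor. In Large against Small, 8 were higher within both numbers (32.9% of all tested genes), 2 lower (30.9%) and 6 mixed, with medians of 0.04 and 0.49. The 8 were Cdk4, Cdk6, Cdk2, Ccne1, Ccne2, Skp2, Fbxo5 and Cdc25a. Cdk4 stood at 689 and 651 CPM in Large 1 and 2 and 518 and 418 CPM in Small (0.52, SE 0.21; edgeR unadjusted p = 0.0463, adjusted p = 0.976). The inhibitor gene Cdkn1c (p57), linked to HSC quiescence, had 5.004 and 20.0 CPM in Large and 11.2 and 23.6 CPM in Small. Cyclin D2 (Ccnd2) had 196 and 319 CPM in Large and 224 and 352 CPM in Small. The inhibitor genes Cdkn2a and Cdkn2b did not reach the count filter.

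Of the E2F and DP genes beyond the 10, E2f7, the other atypical repressor, stood at 30.5 and 31.4 CPM in Large 1 and 2, 17.3 and 13.9 CPM in Medium and 18.6 and 10.6 CPM in Small, so both Large libraries lay above all of these. E2f5, the second p130-binding E2F, had 6.22 and 10.7 CPM in Large, 14.8 and 12.0 CPM in Medium and 7.33 and 12.8 CPM in Small. Tfdp2 had 77.9 and 95.6 CPM in Large, 96.7 and 109 CPM in Medium and 66.4 and 125 CPM in Small. Neither E2f5 nor Tfdp2 was higher in Large than in Medium in either number.

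Rb co-repressors were higher in Large than in Small within both numbers for 8 of 10 genes (32.9% of all tested genes). Their medians were 0.31 and 0.29. Rbbp7, a histone-binding subunit of deacetylase complexes, stood at 832 and 911 CPM in Large 1 and 2, against 622 and 659.7 CPM in Small (0.44, SE 0.16; edgeR adjusted p = 0.976). Arid4b, which encodes a subunit of the Sin3 complex, peaked in Medium, with 25.5 and 18.5 CPM in Large, 50.7 and 38.2 CPM in Medium and 8.04 and 15.4 CPM in Small. Its log2 fold change in Medium against Small was 1.93 (SE 0.41; edgeR unadjusted p = 0.00246, adjusted p = 1.0). Its relative Arid4a had 34.7 and 34.1 CPM in Large, 54.2 and 56.5 CPM in Medium and 21.7 and 33.8 CPM in Small. The partners of E2F6 in its Polycomb complex showed no common direction in Large against Small. Within both numbers 5 of 10 were higher (32.9% of all tested genes) and 2 lower (30.9%), with medians of -0.11 and 0.12.

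**Figure D4:**
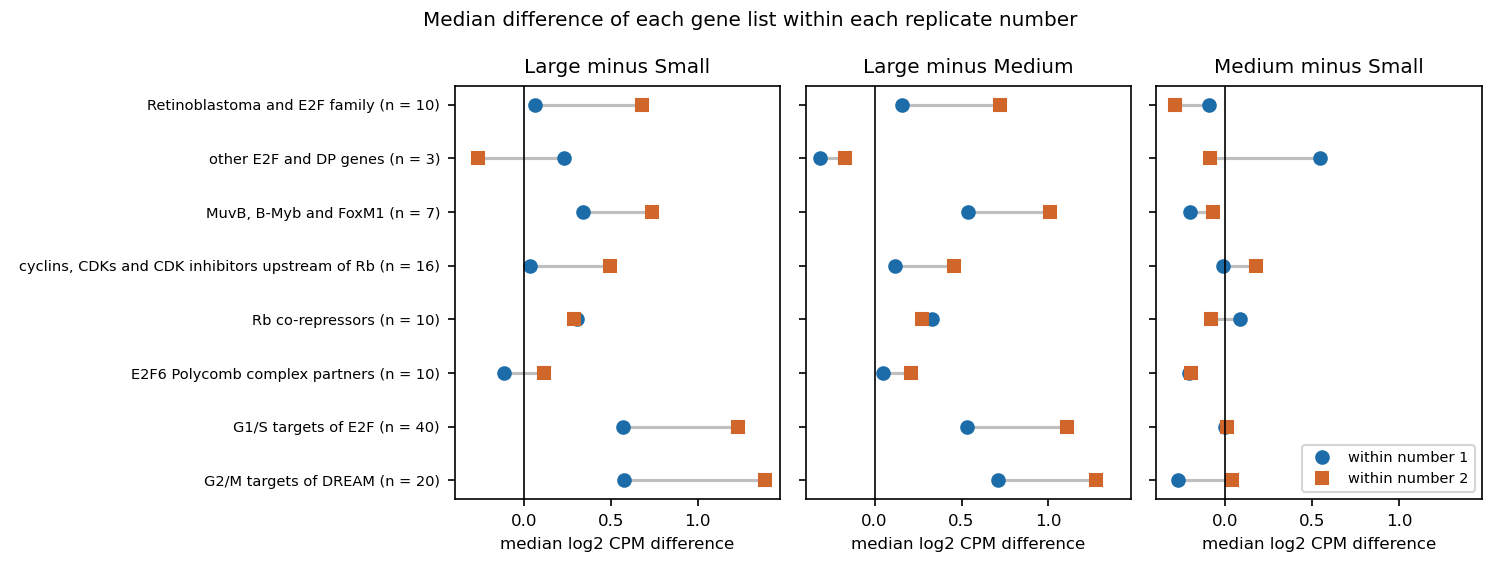
Median difference in log2 CPM of the family and of the 7 surrounding gene lists, within number 1 (circles) and within number 2 (squares), for the 3 comparisons of size gates; n is the number of tested genes. The G1/S and G2/M target lists lie at 0.53 or above in both comparisons with Large and near 0 in Medium minus Small, apart from G2/M within number 1 at -0.27.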

How the data were processed

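Per the submitters' processing notes, STAR 2.5.3a, RSEM 1.3.0 and SAMtools 1.3 were used with genome build mm10, and no annotation release is named there. The authors deposited estimated counts per gene, already whole numbers and unscaled, and log2(TPM + 1) values, from which TPM were recovered. GENCODE M21 gave symbols and GRCm38 coordinates for 50376 of the 50686 IDs; the other 310 took at most 0.131% of a library. Counts were tested with edgeR 4.0.16 under R 4.3.3 by the quasi-likelihood method after TMM scaling and filterByExpr (minimum count 10). The design held group alone and all 8 libraries, leaving 4 residual degrees of freedom. Two-sided p-values were adjusted by Benjamini-Hochberg across the 16066 tested genes, at a threshold of 0.05, and SE is that of the fitted log2 fold change. Within-number differences compare 1 library with 1 on log2 CPM (prior count 2) and have no test. Alternatives were other scaling, filters and libraries left out, DESeq2 1.42.0, limma 3.58.1 and the replicate number as a block. The fit was also run on simulated counts that held no difference between the replicate numbers. That run cannot tell how the fit fares with the number differences of these data. All 10 members are named in every comparison. Of each list, genes past the threshold or, failing that, the 2 with the smallest unadjusted p per direction could be named, and for each pocket protein the 3 most correlated genes averaging at least 5 CPM. Slamf1, Procr, Cd48 and the named granulocyte and monocyte markers were added after their values were seen. So were the names of the 8 higher genes of the cyclin and CDK list, and the Medium or Small values of list genes named for another comparison. The members and lists were chosen with earlier results of these data known. Reads carry no molecular identifiers, so counts overstate the number of molecules seen. A result for 1 gene of these lists is not reported here.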

Additional observations from a re-analysis of the deposited data

How the results depend on the processing

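The edgeR count of 0 genes called in each comparison held with RLE scaling, the stricter filter (10 counts in every library), limma-voom, only the 2 groups in the fit, and each library of the 2 compared groups left out in turn; leaving out a library of the other groups was not run. Without a filter on low counts it became 55 in Large against Small, 58 in Large against Medium and 73 in Medium against Small, with DESeq2 12, 2 and 46, and with limma-trend on log2(TPM + 1) 1 gene in each comparison with Large. No member was among the edgeR or limma calls. Labels do not say that the replicate numbers pair the libraries. Number differences correlated across genes at 0.39 to 0.403 between gates. With the replicate number as a block, edgeR and limma-voom called 0 genes and DESeq2 1438, 959 and 525. At an unadjusted p under 0.05, edgeR with the block held 4, 5 and 2 members (2791, 2380 and 2007 genes), against 0, 1 and 0 without it. DESeq2 with the replicate block called Rbl2 in Large against Small (-0.71, adjusted p = 9.86e-05) and Medium against Small (-0.49, 0.0233), and Rbl1 (0.84, 0.0118), E2f8 (1.51, 0.0111) and Tfdp1 (0.91, 0.00407) in Large against Medium; edgeR with the block gave these an adjusted p no lower than 0.0734. The within-number counts, an alternative added after the values were seen, were 9 members higher in Large within number 2 alone against both Small and Medium, 5 lower within number 1 alone against both, and 2 higher in Medium than Small within either number alone.

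Of 420 member values under alternatives, 385 kept direction and side of the threshold and 30 changed sign; the cause was not tested. In Large against Small, leaving out 1 library spanned -0.38 to 0.34 for Rb1, -0.46 to 1.48 for E2f2, -0.24 to 0.59 for E2f4 and -0.30 to 1.66 for E2f8. In Large against Medium it spanned -0.37 to 0.21 for Rb1, -0.45 to 0.0090 for Rbl2, -0.45 to 2.52 for E2f2 and -0.14 to 0.21 for E2f3. In Medium against Small it spanned -0.29 to 0.43 for Rb1, -0.59 to 0.13 for Rbl1, -0.87 to 0.67 for E2f1, -2.31 to 1.07 for E2f2, -0.81 to 0.024 for E2f4, -2.02 to 0.48 for E2f8 and -0.78 to 0.27 for Tfdp1. The folds that kept their sign spanned, in Large against Small, 0.48 to 0.74 for Rbl1, -0.97 to -0.41 for Rbl2, 0.42 to 1.15 for E2f1, 0.24 to 0.44 for E2f3, 0.067 to 0.31 for E2f6 and 0.11 to 1.17 for Tfdp1. In Large against Medium they spanned 0.46 to 1.19 for Rbl1, 0.048 to 1.61 for E2f1, 0.31 to 0.79 for E2f4, 0.18 to 0.45 for E2f6, 0.49 to 2.39 for E2f8 and 0.58 to 1.23 for Tfdp1. In Medium against Small they spanned -0.75 to -0.19 for Rbl2, 0.13 to 0.46 for E2f3 and -0.26 to -0.014 for E2f6. In these fits a group of 1 library is assumed to vary like the others. Log2(TPM + 1) with limma-trend gave -0.10 for E2f2 and -0.032 for E2f4 in Large against Small, -0.26 for E2f3 in Large against Medium and -0.12 for E2f1 in Medium against Small. The stricter filter gave -0.015 for E2f3 in Large against Medium. For E2f1 in Medium against Small, limma-voom gave -0.074, edgeR with the replicate block -0.0038 and DESeq2 with the replicate block -0.013. E2f2 and E2f3, at 40 and 97 counts in their lowest libraries, are the members that depth limits most.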
